A study of Mus musculus with 12 samples.

Results

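The IGF binding proteins described here are the 6 mouse genes Igfbp2, Igfbp3, Igfbp4, Igfbp5, Igfbp6 and Igfbp7, seen through the open chromatin around them in 12 ATAC-seq libraries. Peaks of all libraries that overlapped by at least 1 bp were merged into regions, and a region was given to a gene when that gene was the nearest protein-coding gene within 100 kb. By this rule 50 of 153346 regions belonged to the 6 genes. A library called a region if its own deposited list held an overlapping peak, so each value below is a count of called regions and not a level of expression. In bulk libraries a region open in fewer cells and one less open in each cell cannot be told apart. The rule used position only and no difference between samples. The genes themselves and the patterns counted below were chosen with earlier results of these data known.

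IGF binding proteins are secreted proteins that hold IGF-1 and IGF-2 outside the cell and so set how much ligand reaches the IGF-1 receptor. Igfbp2 to Igfbp6 bind the IGFs tightly, whereas Igfbp7 binds them weakly and is known mainly as a protein of vessel walls and matrix. Bone and its stromal cells make several of them, Igfbp5 being prominent in bone matrix, and IGFBP3 has been described in human Ewing sarcoma cells as a gene repressed by EWS::FLI1, the fusion transcription factor of that tumour.

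The cells are mouse MSCLCs by their source label, and the study's title speaks of EWS::FLI1, YAP1, IGF-1 and bone mesenchymal stem cells. The genotype label gave 5 groups. They were EF_IGF1_xeno (1 library, line S_221), EF_IGF1 (2 libraries, lines S_220 and S_221), Wt_IGF1 (1 library, line BM), EF (4 libraries, lines S_220 and S_221 on each of 2 flowcells) and Wt (4 libraries, WT_1, WT_2, BM and S_203). The series text names Prx1 beside EF. The strain, age, sex, IGF1 dose and time, the expansion of MSCLCs and EF, and the meaning of xeno were not given in the sources used here. The labels do not say whether libraries came from separate animals or cultures, so spread between libraries may be technical, and the same line names recur among the EF libraries. Every library with IGF1 was on flowcell BSF_1013, and the comparisons of IGF1 therefore used the 8 libraries of that flowcell.

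Wt replicates 1 and 2, both on flowcell BSF_0654, stood apart. Wt replicate 1 had 7464 called regions, against 25562 to 79524 in the other libraries, and 1 of 10 mesenchymal marker genes had a called region there. Wt replicate 2 had 48 of 63 regions near hematopoietic marker genes called (76.2%), against 4.76% to 31.7% in the other libraries, and Col1a2 was the 1 mesenchymal marker gene with no called region. The other 10 libraries had a called region at all 10 mesenchymal marker genes. All 4 epithelial marker genes also had one in every library with IGF1 and every EF library. Such calls alone therefore do not name a cell type. Adipogenic marker regions too were called most in Wt replicate 2, 38 of 61 (62.3%), against 1.64% to 41.0% in the other libraries. Hematopoietic marker regions were called in 9.52% to 31.7% in the libraries with IGF1 and in 17.5% to 31.7% in those without IGF1 on BSF_1013. Of the 8 hematopoietic marker genes, 3 to 6 had a called region in the libraries with IGF1 and 4 to 7 in those without IGF1 on BSF_1013. Their part in the results below was not tested.

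The promoters of the 6 genes differed in whether they were called at all, and 4 of them are shown because they span that range. Each window runs from 250 bases before to 50 bases after the transcription start, from RefSeq, build GRCm38.p6, on the strand of the gene. Capitals mark matches, on either strand, to the motifs searched. These were TGACTCA for the AP-1 factors and GGAATG for the TEAD factors that YAP1 works through. The search also took GGAAGGAA as a repeat of the core that ETS factors such as FLI1 bind. The last were GGGCGG as the GC box and, for the core promoter, TATAAA as the TATA box. The first is Igfbp7 on the minus strand, chr5:77407996-77408295, with a peak over it in 11 of 12 libraries. The next is Igfbp4 on the plus strand, chr11:99040994-99041293, with a peak in 7. Igfbp3 follows on the minus strand, chr11:7213874-7214173, with a peak in 1 library, Wt replicate 4. The start used for Igfbp3 lies inside its gene interval, so this window does not cover the interval's upstream end. Igfbp5, on the minus strand, chr1:72874816-72875115, had a peak in 0 libraries.
Igfbp7: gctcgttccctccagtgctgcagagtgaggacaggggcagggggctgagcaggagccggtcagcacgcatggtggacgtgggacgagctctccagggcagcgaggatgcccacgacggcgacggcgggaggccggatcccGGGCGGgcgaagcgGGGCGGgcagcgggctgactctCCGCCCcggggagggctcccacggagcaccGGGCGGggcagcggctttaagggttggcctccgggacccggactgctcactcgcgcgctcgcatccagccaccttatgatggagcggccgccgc
Igfbp4: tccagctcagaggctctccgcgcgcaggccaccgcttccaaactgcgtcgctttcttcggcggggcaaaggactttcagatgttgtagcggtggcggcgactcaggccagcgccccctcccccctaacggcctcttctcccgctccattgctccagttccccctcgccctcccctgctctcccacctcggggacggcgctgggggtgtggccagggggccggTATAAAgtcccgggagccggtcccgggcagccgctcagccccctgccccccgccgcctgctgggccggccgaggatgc
Igfbp3: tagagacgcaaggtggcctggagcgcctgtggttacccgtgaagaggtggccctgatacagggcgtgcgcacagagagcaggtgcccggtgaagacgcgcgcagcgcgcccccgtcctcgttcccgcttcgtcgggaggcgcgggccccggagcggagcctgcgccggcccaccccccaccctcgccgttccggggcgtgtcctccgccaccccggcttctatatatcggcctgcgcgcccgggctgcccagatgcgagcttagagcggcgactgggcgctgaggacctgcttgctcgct
Igfbp5: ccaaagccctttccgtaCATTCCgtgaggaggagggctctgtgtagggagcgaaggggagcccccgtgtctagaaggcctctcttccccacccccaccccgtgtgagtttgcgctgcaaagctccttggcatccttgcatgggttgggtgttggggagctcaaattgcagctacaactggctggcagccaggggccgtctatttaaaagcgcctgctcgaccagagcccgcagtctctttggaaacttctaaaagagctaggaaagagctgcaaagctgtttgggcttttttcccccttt

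The Igfbp7 window held 4 GC boxes, 3 as printed starting at −110, −96 and −44 from the transcription start and 1 on the opposite strand at −74. The Igfbp4 window held a TATA box at −28, and the Igfbp5 window held a TEAD match on the opposite strand at −233. The Igfbp3 window held none of the motifs. These letters are common, since 46.7% of 21045 promoters of protein-coding genes held a GC box, 13.5% the TEAD letters, 12.7% the TATA letters, 4.69% the AP-1 letters and 3.46% the ETS repeat, which none of the members' windows held. CG dinucleotides numbered 33 in the Igfbp7 window, 27 in Igfbp4, 37 in Igfbp3 and 10 in Igfbp5. Over all promoters the median was 23 (quartiles 16 and 30) where 10 or more libraries had a peak and 3 (quartiles 1 and 7) where none had. Igfbp3 thus had the most CG of the 4 windows shown and was called in 1 library, whereas 40.4% of all promoters had a peak in 10 or more libraries and 43.3% in 1 or 0. The Igfbp6 window, with 8 CG, was called in 1 library (EF_IGF1 replicate 1), and both annotated starts of Igfbp2, with 18 and 14 CG, were called in 0.

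**Figure D1:**
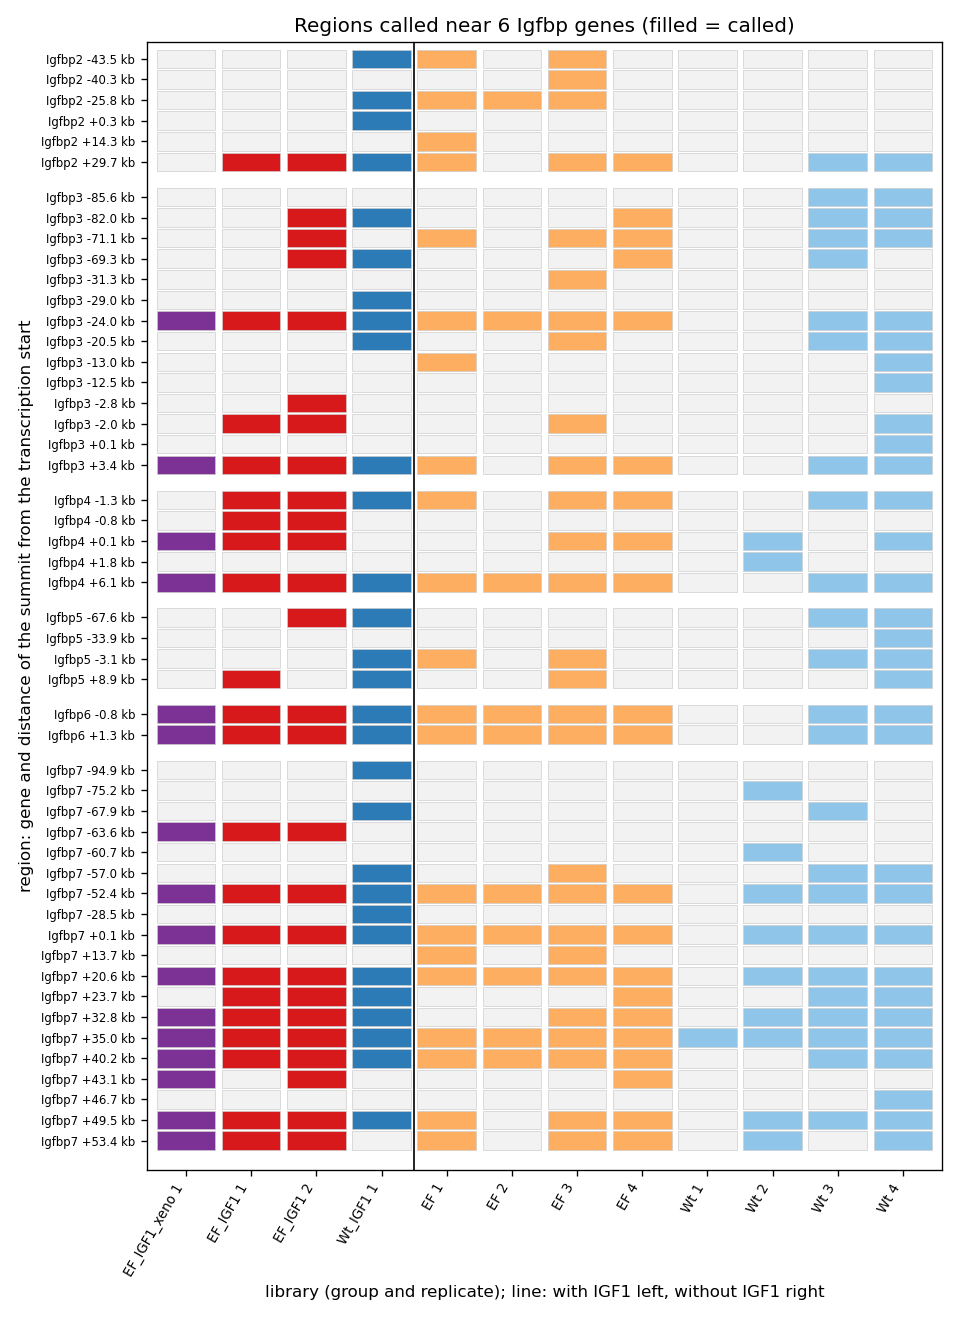
Each row is 1 of the 50 regions, named by its gene and the distance in kb of its summit from the transcription start (upstream negative), each column is a library, and a filled box is a called region. The libraries with IGF1 are left of the line. The boxes of Igfbp6 are filled in all libraries except Wt 1 and Wt 2, whereas those of Igfbp2, Igfbp3 and Igfbp5 are mostly empty.

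Of the 50 regions, 22 overlapped the gene, 27 lay upstream and 1 lay downstream. Igfbp7 had 19 regions, Igfbp3 14, Igfbp2 6, Igfbp4 5, Igfbp5 4 and Igfbp6 2. Regions called in 10 or more libraries made up 20% of the members' regions, against 13% of all 153346, and those called in a single library made up 30%, against 36.3%. All 8 libraries of BSF_1013 called 12 of the 50, or 24%, against 13.5% of all regions. The farthest region taken lay 94789 bp from Igfbp7 and was called in 1 library, and the nearest one not taken lay 101886 bp from Igfbp3 and was called in 4.

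Igfbp2, which also binds integrins through an RGD motif, lies on the plus strand at chr1:72824480-72852474, with the end of Igfbp5 5590 bp away. It had 0 called regions in EF_IGF1_xeno, 1 and 1 in EF_IGF1, 4 in Wt_IGF1, 4, 1, 4 and 1 in EF replicates 1 to 4, and 0, 0, 1 and 1 in Wt replicates 1 to 4. The high EF libraries, replicates 1 and 3, are the 2 of line S_220, and the low ones are the 2 of line S_221, on both flowcells. EF_IGF1 replicate 1, also of line S_220, had 1, as had EF_IGF1 replicate 2 of line S_221. How many other genes split by line in this way was not counted. Dcaf13, named below for its similar calls, had 3 and 3 in the EF libraries of S_220 and 1 and 1 in S_221. Pcdh20, also named there, had 4 and 4 against 0 and 2, so the split is not particular to Igfbp2. The region called most often (chr1:72854814-72855252) lay between Igfbp2 and Igfbp5, 2339 bp past the end of Igfbp2, in 8 libraries. A region at chr1:72798347-72798984, 25794 bp upstream of the start, was called in Wt_IGF1 and in EF replicates 1, 2 and 3 and in no other library. The authors' fold over local background at its summit was 10.8 in Wt_IGF1 and 12.9, 9.88 and 11.1 in the EF libraries, and the 4 summits fell within 22 bp. The region nearest the starts, 325 bp past the upstream one, was called in Wt_IGF1 alone, with a fold of 5.80.

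Igfbp3, which carries most of the IGF in blood together with the acid-labile subunit, lies on the minus strand at chr11:7206086-7215498, 3539 bp from Igfbp1, and 12 of its 14 regions lay upstream. The called regions numbered 2 in EF_IGF1_xeno, 3 and 7 in EF_IGF1, 6 in Wt_IGF1, 4, 1, 6 and 5 in EF, and 0, 0, 7 and 10 in Wt. The groups overlapped, with EF_IGF1 spanning 3 to 7 and EF 1 to 6. The steadiest region (chr11:7237604-7238343) lay 24041 bp upstream of the start and was called in the 10 libraries other than Wt replicates 1 and 2. Its fold was 14.3 in EF_IGF1_xeno, 14.9 and 13.3 in EF_IGF1, 10.4 in Wt_IGF1, 11.8, 11.8, 11.8 and 13.7 in EF, and 11.5 and 11.8 in Wt replicates 3 and 4. Ranked by −log10 p within its own list, it stood in the top 1.49% to 16.9% of peaks of each of the 10. A region inside the gene, 3440 bp past the start (chr11:7210300-7210863), was called in 9 libraries, missing from EF replicate 2 as well. The promoter region (chr11:7213648-7214283) was called in Wt replicate 4 only, with a fold of 4.07 that stood 75.2% down that list. The start used here lies inside the gene interval and not at its upstream end. A region 256 bp beyond that end (chr11:7215755-7216466) was called in 4 libraries. These were both EF_IGF1 libraries, EF replicate 3 and Wt replicate 4.

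Igfbp4, an inhibitory binding protein that the protease PAPP-A cleaves to free IGF, lies on the plus strand at chr11:99040005-99052655, and all 5 of its regions overlapped the gene. They were called as 2 in EF_IGF1_xeno, 4 and 4 in EF_IGF1, 2 in Wt_IGF1, 2, 1, 3 and 3 in EF, and 0, 2, 2 and 3 in Wt. Both EF_IGF1 libraries lay above all others by 1 region or more, and how many other genes show this was not counted. Ppil1, named below for its similar calls, also had 4 and 4 in EF_IGF1 and 0 to 3 in the other libraries. The pattern is therefore not particular to Igfbp4. With only peaks of −log10 q of 5 or more, EF_IGF1 replicate 2 had 3 called regions of Igfbp4. That was level with EF replicates 3 and 4 and Wt replicate 4. The region 6077 bp past the start (chr11:99047091-99048190) was called in 10 libraries. Its peak was 941 bp wide in EF_IGF1_xeno, 1041 and 1048 bp in EF_IGF1, 877 bp in Wt_IGF1, 264, 294, 426 and 1095 bp in EF, and 258 and 1079 bp in Wt replicates 3 and 4. The peaks were wide in all 4 libraries with IGF1 and also in EF replicate 4 and Wt replicate 4, so the groups overlapped. The median peak width over the whole list was 408 bp in EF_IGF1_xeno, 423 and 412 bp in EF_IGF1 and 366 bp in Wt_IGF1. It was 350, 330, 387 and 415 bp in EF, and 342 and 404 bp in Wt replicates 3 and 4. The part of these library-wide widths was not tested. The promoter region (chr11:99040857-99041724) was called in EF_IGF1_xeno, both EF_IGF1, EF replicates 3 and 4, and Wt replicates 2 and 4. Its folds were low, 3.09 to 4.78.

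Igfbp5, the binding protein that attaches to bone mineral, lies on the minus strand at chr1:72858065-72874865. It had 0 called regions in EF_IGF1_xeno, 1 and 1 in EF_IGF1, 3 in Wt_IGF1, 1, 0, 2 and 0 in EF, and 0, 0, 2 and 4 in Wt. None of its 4 regions was called in more than 5 libraries. The region nearest the start lay 3149 bp upstream (chr1:72877829-72878257) and was called in Wt_IGF1, EF replicates 1 and 3 (the line S_220) and Wt replicates 3 and 4. Its fold was 6.21 in Wt_IGF1, 6.72 and 7.99 in EF, and 6.37 and 11.5 in Wt.

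Igfbp6, which prefers IGF-2 to IGF-1, lies on the plus strand at chr15:102144186-102149512, 902 bp from Soat2. Both of its regions were called in the same 10 libraries, that is, in every one except Wt replicates 1 and 2. The upstream region (chr15:102142997-102143733) had its summit 758 bp before the start, with all 10 summits within 36 bp. Its fold was 5.10 in EF_IGF1_xeno, 4.58 and 5.49 in EF_IGF1, 7.62 in Wt_IGF1, 8.59, 7.87, 8.37 and 5.11 in EF, and 5.95 and 9.08 in Wt. The other region (chr15:102144230-102145901) lay 1314 bp past the start. Its peak was 667 bp wide in EF_IGF1_xeno, 1672 and 1461 bp in EF_IGF1, 403 bp in Wt_IGF1, 363, 310, 458 and 1554 bp in EF, and 472 and 475 bp in Wt. The wide ones were those of both EF_IGF1 libraries and EF replicate 4, and the one of EF_IGF1 replicate 1 reached into the promoter window. These libraries also had the largest median peak widths over their whole lists. The medians were 423 and 412 bp in EF_IGF1, 415 bp in EF replicate 4 and 321 to 408 bp in the others. The part of this in the widths at Igfbp6 was not tested.

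Igfbp7 lies on the minus strand at chr5:77349240-77408045, with no other protein-coding gene for 3611039 bp upstream, and 11 of its 19 regions overlapped the gene. It had 10 called regions in EF_IGF1_xeno, 10 and 11 in EF_IGF1, 12 in Wt_IGF1, 8, 5, 10 and 10 in EF, and 1, 9, 10 and 11 in Wt. It was the one member with called regions in all 12 libraries, Wt replicate 1 included, and 7 of its regions were called in all 8 libraries of BSF_1013. The region called in all 12 (chr5:77372643-77373263) lay 35038 bp into the gene, with summits within 61 bp. Its fold was 11.7 in EF_IGF1_xeno, 12.3 and 10.6 in EF_IGF1, 10.1 in Wt_IGF1, 15, 8.33, 11.1 and 9.45 in EF, and 4.46, 9.79, 9.01 and 11.5 in Wt. The promoter region (chr5:77407271-77408293) was called in 11 libraries, with folds of 11.9 in EF_IGF1_xeno, 7.24 and 9.52 in EF_IGF1, 7.42 in Wt_IGF1, 7.75, 8.54, 8.99 and 12.0 in EF, and 7.92, 6.06 and 11.8 in Wt replicates 2 to 4. A far region, 52434 bp upstream (chr5:77459903-77460785), was called in the same 11 libraries.

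**Figure D2:**
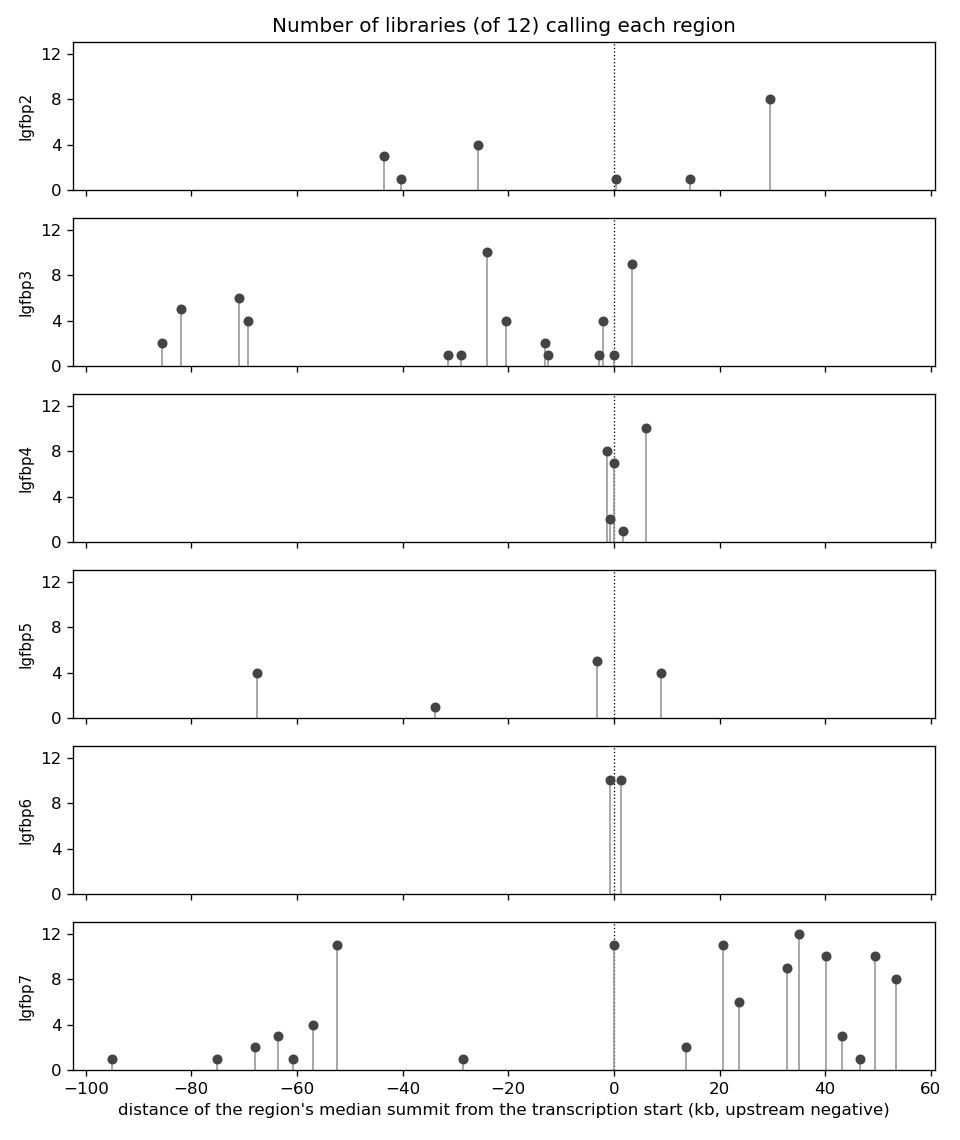
For each gene, the height of a stem is the number of libraries, of 12, that called a region, and its position is the distance in kb of the region's median summit from the transcription start, upstream negative. Igfbp7 has tall stems across its gene body and 1 far upstream, whereas the tallest stem of Igfbp3 is upstream and that of Igfbp2 is downstream.

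**Figure D3:**
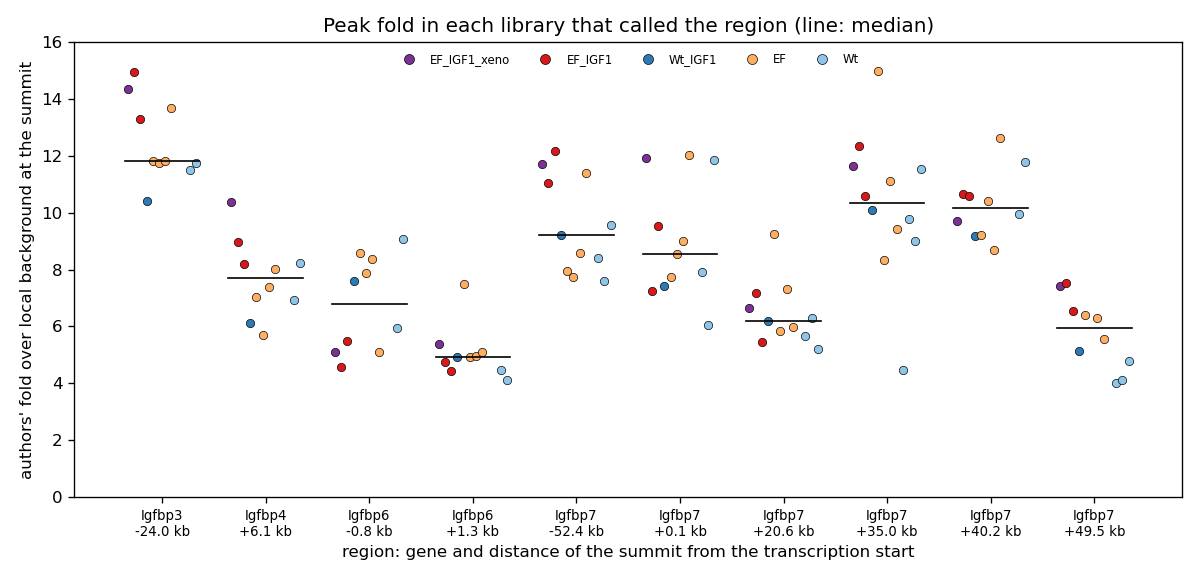
The authors' fold over local background at the summit is shown for the 10 regions called in at least 10 libraries, 1 point per library that called the region, with the median as a line. The medians run from 4.93 (Igfbp6, 1314 bp past the start) to 11.8 (Igfbp3, 24041 bp upstream). The folds belong to separately called lists and were not tested between libraries.

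Libraries with and without IGF1 were compared first, to see whether the chromatin around the genes that hold IGF-1 differed with IGF1 itself. On BSF_1013, the 4 libraries with IGF1 (3 EF, of which 1 xeno, and 1 Wt) were set against the 4 without (2 EF and 2 Wt). Genotype was thus not balanced between the sides, and this test cannot tell its part in a difference from that of IGF1. The differences within lines and those of EF minus Wt on this flowcell are given below. The number of regions called did not pass the test for any of the 6 genes. Igfbp3 had 4.5 ± 2.38 called regions with IGF1 and 7 ± 2.16 without (SD, n = 4 each), a difference of −2.5 (two-sided exact permutation test, p = 0.257). Igfbp7 had 10.75 ± 0.957 with IGF1 and 10.25 ± 0.5 without, a difference of 0.5 (exact p = 0.714). Igfbp4 had 3 ± 1.15 with IGF1 and 2.75 ± 0.5 without, a difference of 0.25 (exact p = 1). Igfbp5 had 1.25 ± 1.26 with IGF1 and 2 ± 1.63 without, a difference of −0.75 (exact p = 0.629). Igfbp2 had 1.5 ± 1.73 with IGF1 and 1.75 ± 1.5 without, a difference of −0.25 (exact p = 1), and Igfbp6 had 2 in every one of the 8 libraries.

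With 4 against 4 libraries there are 70 label orders and no p-value below 0.0286. Over all 17176 genes with a region, 0.384% were higher with IGF1 and 0.0233% lower at an unadjusted p under 0.05. After Benjamini-Hochberg adjustment none (0%) passed, and the adjusted p of each member was 1. With that smallest p, a gene could pass the adjustment only if most genes reached it. The adjustment therefore cannot decide on single genes. The libraries with IGF1 had 40945 to 79524 called regions (mean 59375), against 50409 to 66954 (mean 59132) without, so the means were close and the range was wider with IGF1. Within the 3 lines that had both, Igfbp3 differed by −1 in BM, −3 in S_220 and 2 in S_221, and Igfbp2 by 3 in BM, −3 in S_220 and 0 in S_221, so both changed sign between lines. In BM, S_220 and S_221, Igfbp7 differed by 2, 0 and 1, Igfbp4 by 0, 1 and 1, and Igfbp5 by 1, −1 and 1, while Igfbp6 differed by 0 in each.

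**Figure D4:**
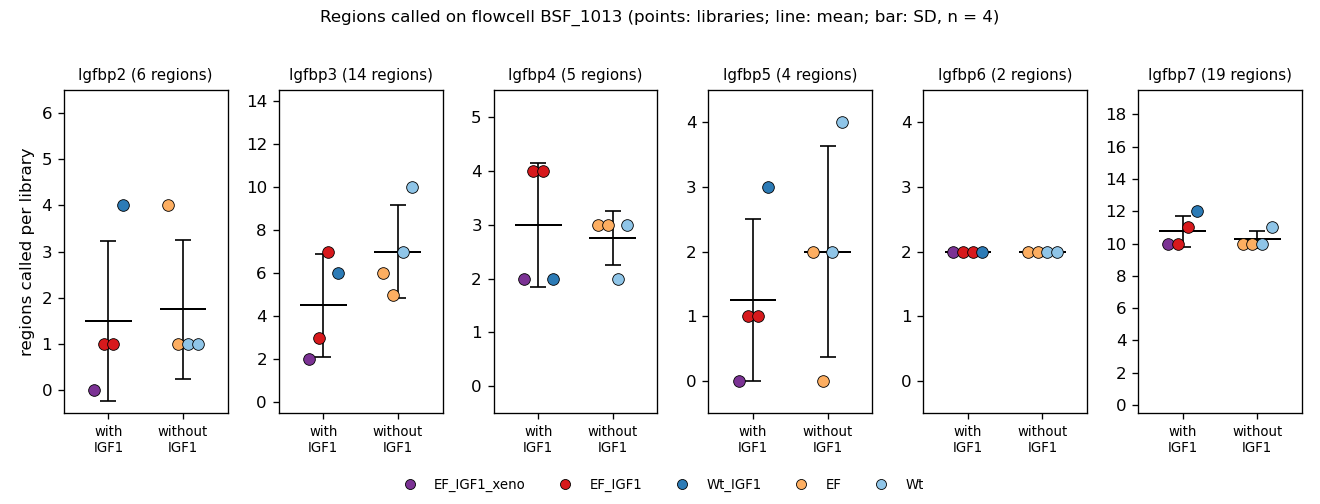
Each panel gives, for 1 gene, the number of regions called in each of the 8 libraries of BSF_1013 (points), with the mean (line) and SD (bar, n = 4) for the libraries with IGF1 on the left and without IGF1 on the right. The points overlap between the sides for all 6 genes, and for Igfbp6 all 8 lie at 2.

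Single regions were then followed. Of the 50, none was called in all 4 libraries with IGF1 and none of the 4 without (0.132% of all regions were), and none in the reverse (0.0163%). In EF cells, 2 of the 50 (4%) were called with IGF1 in both libraries and in neither of the EF libraries of that flowcell, against 2.7% of all regions, and 0 showed the reverse, against 2.08%. The first lay far upstream of Igfbp7, at chr5:77471452-77471754, 63602 bp before the start. It was also the 1 member region called in EF_IGF1_xeno and both EF_IGF1 libraries and in none of the other 9 libraries, a pattern shown by 0.696% of all regions. Its fold was 5.10 in EF_IGF1_xeno and 5.47 and 8.10 in EF_IGF1, its −log10 q was 6.31, 7.06 and 13.3, and it stood 92.5%, 87.2% and 60.1% down the 3 lists. It was thus near the bottom of 2 lists and past the middle of the third.

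The second lay inside the Igfbp4 gene interval at chr11:99040301-99040636, 779 bp before the start used for its promoter window. The 2 EF_IGF1 libraries called it and none of the other 10 did, a pattern shown by 0.734% of all regions. Its folds of 3.02 and 2.60 stood 90.9% and 99.9% down the lists, with −log10 q of 6.47 and 3.27. The other 2 regions around it, at the promoter and 1272 bp before that start, were also called in EF replicates 3 and 4. A count of 2 in 50 is near the background share and is no result about these genes as a set.

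Wt_IGF1 is 1 library, so its comparison has no replicate check. Against Wt replicate 3, of the same line BM, 7 of the 50 regions (14%) were called in Wt_IGF1 only, against 18.5% of all regions, and 2 in Wt replicate 3 only, against 1.98%. Against both Wt replicates 3 and 4, 6 were called in Wt_IGF1 and neither of them, against 10.6% of all regions, and 2 in both and not in Wt_IGF1, against 0.624%. Those 2 lie far upstream of Igfbp3, 71069 and 85553 bp before its start. Of the 6, 3 belong to Igfbp2. Called in Wt_IGF1 and no other library were 4 of the 50 (8%), against 5.19% of all regions. Wt_IGF1 had the most called regions of all libraries, 79524, against 54203 in Wt replicate 3, and the part of list length was not tested.

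EF_IGF1_xeno, also 1 library, had no member region that both EF_IGF1 libraries lacked, against 0.794% of all regions. It lacked 5 of the 50 that both EF_IGF1 libraries had, against 6.83%. These were the region between Igfbp2 and Igfbp5 and the one 1998 bp upstream of the start used for Igfbp3, 256 bp beyond its gene interval. The rest were those 1272 and 779 bp before the promoter start of Igfbp4, which overlap its gene interval, and one 23745 bp into Igfbp7. Its list was the shorter, with 40945 called regions, against 56410 and 60620 in EF_IGF1.

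EF was set against Wt to compare the 2 genotypes without IGF1. None of the 6 genes passed the test. The counts of Wt included replicates 1 and 2, and the 4 EF libraries came from 2 line names, each on both flowcells, so they may not be 4 independent replicates. Igfbp2 had 2.5 ± 1.73 called regions in the EF libraries and 0.5 ± 0.577 in the Wt ones (SD, n = 4 per group), a difference of 2 (exact permutation test, p = 0.171), with EF libraries of line S_221 at the level of Wt replicates 3 and 4. Igfbp6 had 2 ± 0 in EF and 1 ± 1.15 in Wt, a difference of 1 (exact p = 0.429). Igfbp3 had 4 ± 2.16 in EF and 4.25 ± 5.06 in Wt (exact p = 1), and Igfbp7 had 8.25 ± 2.36 in EF and 7.75 ± 4.57 in Wt (exact p = 0.914). Igfbp4 differed by 0.5 (2.25 ± 0.957 in EF and 1.75 ± 1.26 in Wt, exact p = 0.743) and Igfbp5 by −0.75 (0.75 ± 0.957 in EF and 1.5 ± 1.91 in Wt, exact p = 0.714). Of 17200 genes, 0.209% were higher and 0.0698% lower in EF at an unadjusted p under 0.05, and none (0%) passed the adjustment. With the same number of label orders as for IGF1, this adjustment cannot decide on single genes either.

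On BSF_1013 alone, which leaves out Wt replicates 1 and 2, the difference of EF minus Wt was 1.5 for Igfbp2, −3 for Igfbp3, 0.5 for Igfbp4, −2 for Igfbp5, 0 for Igfbp6 and −0.5 for Igfbp7, with 2 libraries a side. Wt replicates 1 and 2 called neither Igfbp6 region, and without them EF and Wt were level at 2. By region, 1 of the 50 was called in 3 or 4 of the EF libraries and in none of the Wt ones, against 1.19% of all regions, and 0 showed the reverse, against 0.938%. It is the Igfbp2 region 25794 bp upstream of the start. On BSF_1013 alone, 0 were called in both EF and neither Wt library, against 1.91%, and 2 (4%) in both Wt and neither EF library, against 4.57%. These 2 lie 67638 bp upstream of the start of Igfbp5 and 85553 bp upstream of the start used for Igfbp3.

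Calls were also counted by line name and by single library. These patterns were added after seeing the calls, so the shares of all regions beside them are no test. Regions called in both EF libraries of line S_220 and in no other library of EF cells numbered 3 of 50 (6%), against 4.5% of all regions, at Igfbp2, Igfbp5 and Igfbp7. EF_IGF1 replicate 1, also of line S_220, called none of the 3. A region 43130 bp into Igfbp7 was called in EF_IGF1_xeno, EF_IGF1 replicate 2 and EF replicate 4, all of line S_221, and in no other library, as were 0.101% of all regions. EF replicate 2, of the same line, did not call it. Its folds were 3.63 in EF_IGF1_xeno, 4.31 in EF_IGF1 and 4.56 in EF. In the same order it stood 98.3%, 73.8% and 73.8% down the lists, with −log10 q of 4.70, 9.70 and 9.52. The regions called in the 10 libraries other than Wt replicates 1 and 2, and in neither of these, numbered 5 of 50 (10%), against 2.18% of all regions. They were both Igfbp6 regions, the one 24041 bp upstream of the Igfbp3 start, the one in the body of Igfbp4 and one 40196 bp into Igfbp7. Of regions called in a single library, 3 of the 50 (6%) were those of Wt replicate 2, against 14.6% of all regions, and 4 (8%) those of Wt replicate 4, against 3.35%.

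The other genes of the IGF axis were counted from a list of 15 (ligands Igf1 and Igf2, receptors Igf1r, Igf2r and Insr, the adaptors Irs1 and Irs2, the proteases Pappa, Pappa2 and Htra1, the PAPP-A inhibitors Stc1 and Stc2, and Igfbp1, Igfbpl1 and Igfals). They held 290 regions, of which 8 (2.76%) were called in both EF_IGF1 and neither EF library of BSF_1013 and 7 (2.41%) in the reverse. None of the 15 passed the test of with against without IGF1 in either direction at an unadjusted p under 0.05 (exact permutation test), and the median difference was 0. Irs2, an adaptor that passes the receptor's signal on, had 20.75 ± 0.957 called regions with IGF1 and 16.25 ± 3.86 without (SD, n = 4 each), a difference of 4.5 (exact permutation p = 0.0857). Igf1 itself had 3 called regions in EF_IGF1_xeno, 5 and 6 in EF_IGF1, 20 in Wt_IGF1, 10 and 7 in EF replicates 3 and 4, and 12 and 15 in Wt replicates 3 and 4. EF replicates 1 and 2 had 11 and 4 and Wt replicates 1 and 2 had 1 and 10, and EF minus Wt over all 8 libraries without IGF1 was −1.5 (exact permutation p = 0.714), so EF and Wt overlapped.

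The genes whose calls were most like those of the members were found over the 12 libraries, among 8539 genes with 5 or more regions, by the mean absolute difference in the share of a gene's regions called. They were Pcdh20 (0.0417) and Dcaf13 (0.0667) for Igfbp2, Egfr (0.0645) and Cdh17 (0.0655) for Igfbp3, Ppil1 and Ampd2 (0.05 each) for Igfbp4, and Bfsp1 (0.0292) and Uck2 (0.0439) for Igfbp7. Pcdh20 had 4 called regions in Wt_IGF1 and in EF replicates 1 and 3, as Igfbp2 had, and 0 to 2 in the other libraries. Igfbp5 and Igfbp6 had too few regions for this search. The length of a library's list bears on its calls at all genes, so the likeness is a description.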

How the data were processed

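ATAC-seq marks open chromatin by where a transposase inserts adapters. Per the labels' protocols, cells were treated with digitonin and the enzyme TDE1, and libraries were sequenced single-end on a HiSeq. Per the submitters' processing notes, MACS2 and build GRCm38.p3 were used; the aligner, options and read totals were not given in the sources used here. The length of each list is therefore the only guide to depth here, and how far it reflects depth was not tested. The deposited lists, 1 per library, give for each peak a score, a fold (ratio) over local background, and p-value and q-value as −log10. These are the authors' own values and were used for description, ranking and filtering inside 1 list at a time.

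Peaks on chromosomes 1 to 19 and X were merged (other sequences held 23 to 43 per library, not used), and nearest genes came from RefSeq GRCm38.p6 gene intervals of 21631 protein-coding genes. Differences in called regions per gene were tested over all genes by two-sided exact permutation with Benjamini-Hochberg adjustment, and the procedure was tested on simulated data. Regions were counted by calling pattern without a test, and the patterns by line and by single library were added after seeing the calls. The members, gene lists and patterns were chosen with earlier results of these data known. Named were all 6 members, the regions nearest a start, called most often or showing a pattern counted, and the 2 most similar genes per member with 5 or more regions. Alternatives changed the peaks used, the scale, the distance and the libraries. Same line names pair libraries with and without IGF1; the correlations of paired deviations were 0.381 (BM), 0.0572 (S_220) and 0.221 (S_221), and EF_IGF1 replicate 1 (S_220) correlated at 0.229 with EF replicate 4 (S_221), above 2 of the 3 same-line values. Python 3.11.15, pandas 2.3.3, numpy 2.4.6 and matplotlib 3.10.9 were used.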

Additional observations from a re-analysis of the deposited data

Results flagged for a closer look

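In 3 cases a library stood far from the others of its group of 4, the libraries without IGF1 on BSF_1013. For Igfbp2, EF replicate 3 had 4 called regions, against 1 in each of the other libraries. For Igfbp4, Wt replicate 3 had 2, against 3 in each of the others. For Igfbp7, Wt replicate 4 had 11, against 10 in each of the others. With small whole counts, a gap of 1 region from tied values is enough to stand apart, and the usual chance rate of about 1 in 20 groups is for values without ties. The rate for tied counts was not determined.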

How the results depend on the processing

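No member passed the threshold under any alternative, though EF against Wt on BSF_1013 alone (2 against 2, smallest exact p 0.333) could not have passed. The lowest exact permutation p was 0.0571, and scaling per 10000 called regions gave it. For with minus without IGF1 this was Igfbp3 (−0.454, against an unscaled exact permutation p = 0.257). For EF minus Wt it was Igfbp2 (0.452) and Igfbp6 (0.305), against unscaled exact permutation p = 0.171 and 0.429. All 4 EF libraries and Wt replicates 3 and 4 called 2 regions of Igfbp6, so their scaled values differed by list length alone. They ran from 0.299 in Wt replicate 4 to 0.782 in EF replicate 2, whereas Wt replicates 1 and 2 had 0. The scaled test of Igfbp6 therefore cannot tell genotype from list length and those Wt libraries. With minus without IGF1, 60 of 90 values kept the direction, 9 reversed and 6 were 0, while the 15 of Igfbp6 had no direction to keep. For EF minus Wt, 55 of 66 kept it, 10 reversed and 1 was 0. The cause of the reversals was not tested. With all 4 libraries with IGF1 against all 8 without, Igfbp3 differed by 0.375 and Igfbp5 by 0.125. With summit windows Igfbp4 differed by −0.25, and within 20 kb Igfbp7 by −0.25. Without 1 library at a time, with minus without IGF1 ran between −1.08 and 0.5 for Igfbp2, −3.33 and −1.5 for Igfbp3, −0.0833 and 0.583 for Igfbp4, −1.42 and −0.0833 for Igfbp5, and 0.0833 and 0.75 for Igfbp7. EF minus Wt ran between −1.67 and 1.67 for Igfbp3, −0.0833 and 0.917 for Igfbp4, −1.25 and 0.0833 for Igfbp5, and −1.75 and 1.58 for Igfbp7; per 10000 called regions Igfbp3 differed by 0.092, and on BSF_1013 alone Igfbp7 by −0.5. With the replicate block by line name (3 pairs), the difference was 0.333 for Igfbp5, 0 for Igfbp2, −0.667 for Igfbp3, 0.667 for Igfbp4, 0 for Igfbp6 and 1 for Igfbp7, and no exact sign-flip p was below 0.5; 3 pairs cannot pass 0.05. Member regions gained with IGF1 in EF cells (2) numbered 1 at −log10 q of 5 or more, 0 among the top 20000 peaks, 1 with summit windows, 1 within 20 kb, and 2 to 4 without 1 library at a time (4 without EF_IGF1 replicate 1). Those lost (0) numbered 0 to 8, with 8 without EF replicate 4 and 1 without EF_IGF1 replicate 2. Of regions in all 4 against none of 4, 0 to 1 were gained (1 without Wt_IGF1) and 0 to 1 lost (1 without EF_IGF1 replicate 2). A region not called can be one just under a caller's threshold, and lists of unequal length differ in what they call.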
